A study of Mus musculus with 72 samples.

Results

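Adipocyte genes were followed through the kidney samples of mice exposed to 177Lu, a beta-emitting radionuclide. The 9 genes are Adipoq, Cfd, Cidec, Retn, Lpl, Fabp4, Car3, Ucp1 and Plin4, chosen by name and read from the brightest probe with that symbol. Of these, 8 had a probe with their symbol, each a single probe, among 16593 genes in all, and Cfd is not analysed here. RNA from the cortex and the medulla of Balb/c kidneys was hybridized to 72 Illumina expression arrays. Groups were controls (no dose given in the labels, which list 177Lu as nuclide for them too), and mice with an absorbed dose of 0.3, 3 or 10 Gy, each sampled at 1.5, 3 and 4.5 months, in 2 tissues. These 24 groups hold 3 arrays each. The age and sex of the animals are not given in the sources used here. The labels do not say that the 3 samples of a group are separate animals, so a p-value here reflects the spread among those samples alone.

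Adipocytes store triglyceride in lipid droplets and secrete hormones, and in the mouse they lie in a fat pad around the kidney and its hilum as well as in other depots. The genes fall into roles. Adipoq, Retn and Cfd encode secreted products of fat: adiponectin, resistin and adipsin, the serine protease of the alternative complement pathway. Cidec and Plin4 encode lipid droplet proteins, of which Cidec helps droplets fuse into large ones. Lpl releases fatty acids from circulating lipoproteins and Fabp4 carries fatty acids inside the cell. Both are also made outside adipocytes, Fabp4 in capillary endothelium and macrophages and Lpl in muscle and heart. Car3 is a cytosolic carbonic anhydrase that is abundant in mouse fat and in skeletal muscle. Ucp1 uncouples respiration in the mitochondria of brown and beige adipocytes. In a bulk sample of tissue, fewer cells of a type and less RNA per cell cannot be told apart.

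The promoters of Adipoq and Cidec are shown because these genes varied together across arrays, and that of Ucp1 because its high arrays were in part others. Each window runs from 250 bases before to 50 bases after a gene's start in RefSeq's annotation of GRCm38.p6, written 5′ to 3′ on the gene's strand. Of the 9 genes, 6 had a window. Capitals mark matches to CCAAT or its reverse complement in Adipoq and to AGGTCA in Ucp1. The Adipoq window is chr16:23146286-23146585 (plus strand), the upstream of the Cidec windows is chr6:113435711-113436010 (minus strand) and the Ucp1 window is chr8:83290098-83290397 (plus strand).
Adipoq: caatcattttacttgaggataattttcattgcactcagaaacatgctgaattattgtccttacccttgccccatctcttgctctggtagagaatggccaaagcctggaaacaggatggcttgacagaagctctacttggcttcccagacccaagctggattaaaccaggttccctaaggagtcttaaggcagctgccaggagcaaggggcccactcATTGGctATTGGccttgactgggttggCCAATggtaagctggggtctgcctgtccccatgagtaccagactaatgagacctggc
Cidec: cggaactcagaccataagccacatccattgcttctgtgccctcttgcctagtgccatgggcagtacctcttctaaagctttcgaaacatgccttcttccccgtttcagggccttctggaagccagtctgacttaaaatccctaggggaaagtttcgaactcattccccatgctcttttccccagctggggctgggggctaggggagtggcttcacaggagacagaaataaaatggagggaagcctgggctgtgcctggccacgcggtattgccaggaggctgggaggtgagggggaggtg
Ucp1: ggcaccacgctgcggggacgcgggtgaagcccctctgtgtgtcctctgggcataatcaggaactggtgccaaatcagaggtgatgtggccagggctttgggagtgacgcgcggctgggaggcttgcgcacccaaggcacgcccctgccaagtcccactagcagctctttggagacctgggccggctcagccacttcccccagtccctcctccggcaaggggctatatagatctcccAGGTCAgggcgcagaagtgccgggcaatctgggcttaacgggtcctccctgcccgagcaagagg
On both strands, 4 motifs that do not contain each other were searched, namely the TATA box (TATAAA), the CCAAT box, the half-site of nuclear receptors (AGGTCA) and a palindrome bound by C/EBP factors (TTGCGCAA). CCAAT was found 3 times in the Adipoq window, at position -7 from the start on the same strand and at -34 and -27 on the opposite strand. Plin4 held CCAAT once, at -18 on the opposite strand. AGGTCA was found in the Ucp1 window at -14, and none of the 4 motifs was found in either Cidec window. Among 32851 windows of the same length, CCAAT was held by 37.41%, AGGTCA by 16.26%, TATAAA by 13.62% and TTGCGCAA by 0.18%. A match is a string of letters and not a known binding site.

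Replicate 3 of the cortex controls at 1.5 months was left out, so that group has 2 arrays and the cortex 35. On that array Slc34a1, a proximal tubule transporter, was at a log2 intensity of 6.96, whereas the other cortex arrays had at least 13.87, and Adipoq was at 6.99. A further 3 cortex arrays, replicate 3 of 0.3 Gy at 1.5 months and replicate 3 of 3 Gy and of the controls at 4.5 months, had the adrenal gene Cyp11b1 at 11.43 to 12.92, against at most 7.65 on the other 68 arrays. They were kept. Without them Adipoq was 1.58 log2 units higher in the cortex than in the medulla over all groups, against 1.64 with them, and of the calls in the text 1 changed (Plin4 in controls, which then passed at 0.66). Array medians lay between 143.4 and 143.9 on the linear scale. A level is called above the floor here where the intensity is 150 or more, log2 7.23. A gene was tested where every array of some group reached that level, which were 8699 in the cortex, 8677 in the medulla and 9019 across both tissues. In each tissue 6 of the 8 genes passed: Adipoq, Car3, Cidec, Plin4, Fabp4 and Lpl. Cidec passed in the medulla only through the 3 Gy group at 4.5 months and Fabp4 only through the controls at 4.5 months, so their contrasts with those groups in the medulla were in part chosen by the filter. In the cortex Fabp4 passed through 3 of 12 groups: 10 Gy at 1.5 months, 3 Gy at 4.5 months and controls at 4.5 months. Car3 passed in the medulla through 3 of 12: 3 Gy at 4.5 months and controls at 1.5 and 3 months. The same limit holds for their contrasts with those groups. Of kidney markers, Slc5a2 of the proximal tubule was 1.44 ± 0.08 log2 units higher in the cortex than in the medulla. Slc12a1 of the thick limb and Aqp2 of the collecting duct were at -1.25 ± 0.04 and -1.26 ± 0.05. Slc34a1 (0.0006 ± 0.03) and Umod (0.02 ± 0.05) missed the threshold. Other proximal tubule genes passed in both directions, among them Slc22a6 at 1.11 ± 0.06 and Kap at -1.14 ± 0.18. The summed intensity of 7 proximal tubule genes was 48373 to 68135 in the cortex and 50529 to 75399 in the medulla. Of 10 skeletal and smooth muscle markers, 7 were above the floor on 0 of 71 arrays, among them Acta1, Myh4 and Ckm of skeletal muscle, and 3 on all of them: Myh11, Des and Acta2. Those 3 were highest in the cortex on replicate 1 of 3 Gy at 4.5 months, and the summed intensity of the list ran from 3173 to 10902 in the cortex and from 3750 to 6429 in the medulla. Of 9 liver and pancreas markers, 4 were above it on 0 of 71 arrays, among them Alb, 2 on all (Ttr and Cela1) and 3 on some. Of these Apoa1 was above it on 5 cortex arrays, up to 8.64, and on 1 medulla array. The part of these markers in the results was not tested.

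Adipoq, the adiponectin gene, was above the floor on every cortex array and varied over a 26.2-fold range there. At 1.5 months its log2 intensity in the cortex was 9.87 and 9.41 in controls, 8.67, 7.44 and 10.72 at 0.3 Gy, 8.00, 11.08 and 9.04 at 3 Gy, and 12.07, 10.02 and 10.75 at 10 Gy. At 3 months it was 8.78, 8.49 and 9.66 in controls, 9.91, 9.20 and 11.64 at 0.3 Gy, 10.29, 9.14 and 8.65 at 3 Gy, and 7.46, 9.92 and 9.85 at 10 Gy. At 4.5 months it was 11.09, 11.58 and 10.11 in controls, 8.91, 10.42 and 7.36 at 0.3 Gy, 11.14, 10.18 and 11.11 at 3 Gy, and 10.45, 11.30 and 9.80 at 10 Gy. Arrays of the same dose and time lay far apart: in the 0.3 Gy group at 1.5 months the highest array was 9.75 times the lowest. Ordered by mean, the 12 cortex groups ran from 8.90 ± 1.53 at 0.3 Gy and 4.5 months to 10.95 ± 1.04 at 10 Gy and 1.5 months (SD, n = 3 each). The largest step between neighbours in that order was 0.61, less than the within-group SD of 1.13. Steps between neighbours among 12 ordered means tend to be small, so this does not show that the groups are alike. The lowest and highest means lay further apart than that SD.

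In the medulla Adipoq was above the floor on 30 of 36 arrays, with a 10.2-fold range. Its log2 intensity there had a lowest value of 7.30, a median of 7.69 and a highest value of 9.78 in the 9 control arrays. The same values were 7.01, 7.66 and 10.28 at 0.3 Gy, 6.93, 8.80 and 10.20 at 3 Gy and 6.98, 7.72 and 9.66 at 10 Gy. Each dose thus had arrays near the floor and at least 1 array well above it. The highest medulla arrays were replicate 2 of 0.3 Gy at 4.5 months (10.28), replicate 3 of 3 Gy at 4.5 months (10.20) and replicate 2 of 3 Gy at 1.5 months (9.83). Group means in the medulla lay between 7.31 ± 0.35 at 0.3 Gy and 1.5 months and 9.38 ± 0.74 at 3 Gy and 4.5 months (SD, n = 3 each). Their largest step, 0.71, was again under the within-group SD of 1.05, with the same limit as in the cortex.

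**Figure D1:**
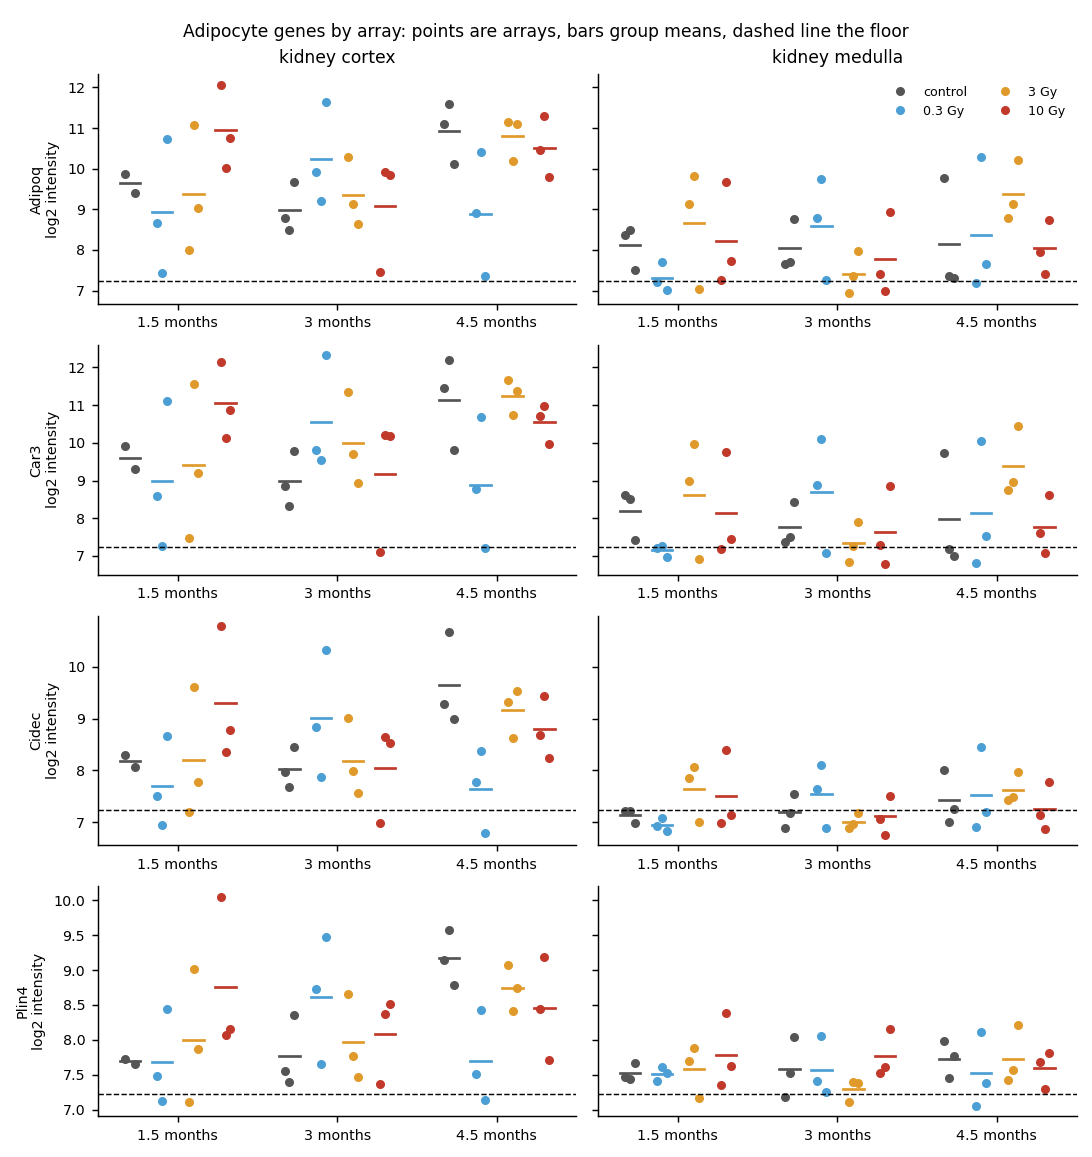
Log2 intensity of Adipoq, Car3, Cidec and Plin4 (rows) on each array of the cortex (left) and medulla (right), by time and by dose, with controls at the low end. Points are arrays, bars group means and the dashed line the floor of 7.23. In the cortex Adipoq runs between 7.36 and 12.07, and the widest group, 0.3 Gy at 1.5 months, runs from 7.44 to 10.72.

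Car3 had the widest range of the 8 genes. Its log2 intensity in the cortex ran from 7.11 to 12.32, a 37.2-fold range with a median of 9.97, and in the medulla from 6.78 to 10.44, a 12.6-fold range with a median of 7.52. It was above the floor on 33 of 35 cortex arrays and 25 of 36 medulla arrays. Cidec, the lipid droplet gene, ran from 6.80 to 10.79 in the cortex (median 8.45) and from 6.76 to 8.46 in the medulla (median 7.18). It was above the floor on 31 cortex arrays and 14 medulla arrays, so most medulla values have only an upper bound. Plin4 ran from 7.11 to 10.05 in the cortex (median 8.35), a 7.71-fold range, and from 7.06 to 8.39 in the medulla (median 7.53). The highest 3 cortex arrays of Adipoq, Car3, Cidec and Plin4 were the same: replicate 1 of 10 Gy at 1.5 months, replicate 3 of 0.3 Gy at 3 months and replicate 2 of the controls at 4.5 months. These 3 arrays belong to different doses and times and 1 of them is a control.

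Fabp4 and Lpl moved over narrower ranges. Fabp4, the fatty acid carrier, lay between 6.77 and 8.44 in the cortex (median 7.26) and between 6.92 and 7.56 in the medulla (median 7.21), above the floor on 19 of 35 and 16 of 36 arrays. Its highest cortex arrays were replicate 2 of the controls at 4.5 months (8.44) and replicate 1 of 10 Gy at 1.5 months (8.39), both among the highest 3 for Adipoq. Lpl was far above the floor on all 71 arrays, at 12.79 to 13.56 in the cortex (median 13.12) and 13.55 to 14.56 in the medulla (median 14.14). Retn, the resistin gene, was above the floor on 0 of 35 cortex and 0 of 36 medulla arrays, with values of 6.71 to 7.13 and 6.72 to 7.18.

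Ucp1 was above the floor on 17 of 35 cortex and 4 of 36 medulla arrays and passed on all arrays of no group. It reached 9.48 on replicate 3 of 0.3 Gy at 3 months, 9.12 on replicate 3 of 3 Gy at 4.5 months and 9.07 on replicate 1 of 3 Gy at 3 months, against a cortex median of 7.23. The other arrays of those 3 groups lay between 6.87 and 7.34. Replicate 3 of 3 Gy at 4.5 months is 1 of the 3 cortex arrays with adrenal genes. Replicate 3 of the controls at 4.5 months, rank 5 for Ucp1 (8.06), is another. In the medulla Ucp1 ran from 6.73 to 7.53. Of the 5 cortex arrays highest for Ucp1, 1 was also among the 5 highest for Adipoq. It was 4 of 5 for Car3 and for Plin4, and 3 of 5 for Cidec, Fabp4 and Lpl. In the medulla Ucp1 and Plin4 each shared 3 of 5, against 4 of 5 for Car3 and for Cidec, 1 for Fabp4 and 0 for Lpl. Among other brown fat markers, Cox8b, a respiratory chain subunit, was above the floor on 34 of 35 cortex and 36 of 36 medulla arrays. Cidea, a lipid droplet protein, was above it on 26 cortex and 15 medulla arrays, and Elovl3, a fatty acid elongase, on 0 of both.

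**Figure D2:**
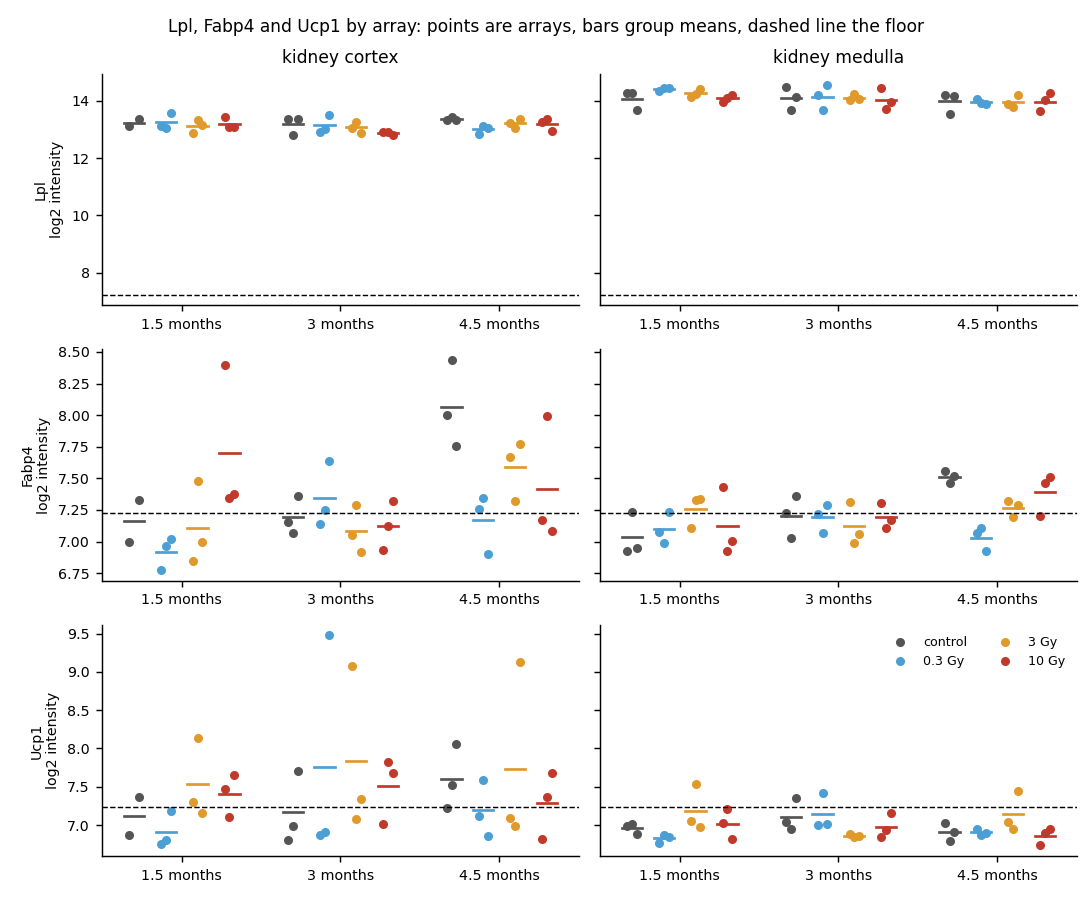
Log2 intensity of Lpl, Fabp4 and Ucp1 (rows, each on its own scale) on each array of the cortex (left) and medulla (right), by time and dose. Points are arrays, bars group means and the dashed line the floor. Lpl lies lower in the cortex than in the medulla, and Ucp1 rises above 9 on 3 cortex arrays.

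Spread within a dose and time group was wide for Car3, Adipoq, Cidec and Plin4. The within-group SD, pooled over the 12 groups of a tissue, was 1.38 log2 units for Car3 and 1.13 for Adipoq in the cortex, ranks 2 and 3 of 8699 genes, where the median gene had 0.15. Cidec had 0.89 (rank 12) and Plin4 0.71 (rank 33). Fabp4 was at rank 584 and Lpl at rank 1637. In the medulla Car3 (1.14) and Adipoq (1.05) again had ranks 2 and 3, of 8677 genes, Cidec was at rank 120, Plin4 at 394, Lpl at 789 and Fabp4 at 4841. Rank 1 was held in both tissues by Igf2, a fetal growth factor gene. Among the 10 highest cortex ranks were also Cox8b (5), Cidea (7) and Thrsp (9), a lipogenic gene. The others were Kap of the proximal tubule (4), Igtp (6), Actg2 (8) and Cldn11 (10). Medulla ranks 4 to 10 were Slpi, Cyp24a1, Pck1, Cldn11, Igtp, Egr1 and Mxi1, without Cox8b, Cidea or Thrsp. These ranks are a description, with no test.

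**Figure D3:**
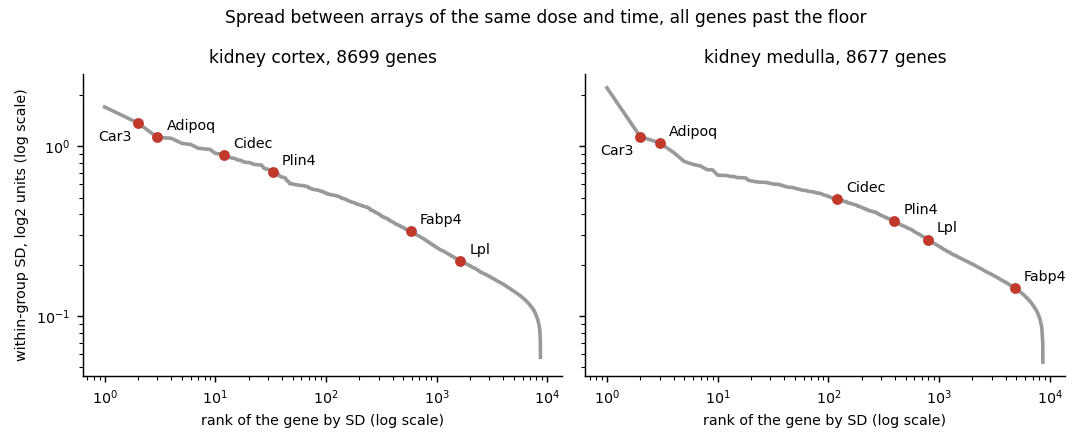
Within-group SD of every tested gene in log2 units against its rank, both on log scales, for the cortex (left, 8699 genes) and the medulla (right, 8677 genes). The grey line is all genes and red points are the adipocyte genes that passed the floor. Car3 and Adipoq hold ranks 2 and 3 in both tissues, whereas Fabp4 is at rank 4841 in the medulla.

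Adipoq, Car3, Cidec and Plin4 were higher in the cortex than in the medulla, and Lpl was lower. Over all groups, 4 of the 6 tested genes were higher and 1 was lower in the cortex, in a comparison in which 64.9% of all 9019 genes passed the threshold, 34.2% higher and 30.7% lower (limma, Benjamini-Hochberg adjusted p under 0.05). With so large a background, the count itself does not single these genes out. Adipoq was 1.64 ± 0.25 log2 units higher (SE, 35 cortex and 36 medulla arrays), a 3.11-fold difference with a 95% interval of 2.20 to 4.38 and a limma adjusted p of 7.2e-08. Its mean was higher in the cortex in 12 of 12 dose and time groups, by 0.52 to 2.78. The arrays of both tissues overlapped, since the highest medulla array (10.28) lay above the cortex median of 9.91.

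Car3 was 3.74-fold higher in the cortex (1.90 ± 0.29 log2 units, limma adjusted p = 6.24e-08) and Cidec 2.24-fold higher (1.17 ± 0.16, limma adjusted p = 1.02e-08). Plin4 was 1.54-fold higher, at 0.62 ± 0.13 log2 units with a limma adjusted p of 2.89e-05. All 3 had a higher cortex mean in 12 of 12 groups. Because Cidec was under the floor on most medulla arrays, its fold rests on values near the bottom of the scale. Lpl ran the other way, at 0.525-fold in the cortex (-0.93 ± 0.06, limma adjusted p = 1.27e-20), with a lower cortex mean in 12 of 12 groups. Fabp4 differed by 0.12 ± 0.06, with a limma adjusted p of 0.0553 and a higher cortex mean in 7 of 12 groups. It passed in 22 of 81 alternatives, among them the fit with cortex and medulla arrays of 1 number as a block (0.12, limma adjusted p = 0.0176). Genes of other cell types that make Fabp4 also differed: 9 of 10 endothelial and 6 of 6 tested macrophage genes were lower in the cortex. The summed intensity of the 10 endothelial genes was 7322 to 11123 in the cortex and 12736 to 18036 in the medulla, and that of 7 macrophage genes 1448 to 3739 and 2147 to 7498. Their part in the values of Fabp4 was not tested.

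In control mice alone, Adipoq was 1.74 ± 0.51 log2 units higher in the cortex (8 arrays) than in the medulla (9 arrays), with a limma adjusted p of 0.00493. Its log2 intensity ran from 8.49 to 11.58 in control cortex (median 9.77), and from 7.30 to 9.78 in control medulla (median 7.69). Car3 was 1.94 ± 0.59 and Cidec 1.36 ± 0.33 log2 units higher, and Lpl was at -0.78 ± 0.12, all past the threshold. Lpl was the only tested gene here whose arrays did not overlap, at 12.79 to 13.45 in control cortex and 13.55 to 14.47 in control medulla, and 4.96% of all genes had every control cortex array below every control medulla array. Plin4 (0.60 ± 0.26, limma adjusted p = 0.0663) and Fabp4 (0.22 ± 0.12, limma adjusted p = 0.126) missed it. The background in controls was 37.4% of genes called, 18.6% higher and 18.7% lower. Ucp1 and Retn did not pass the floor; in a fit without one, which tested 16593 genes, Ucp1 was at 0.30 ± 0.24 in controls (limma adjusted p = 0.490) and Retn at -0.03 ± 0.05 (limma adjusted p = 0.799), where 19.4% of genes were called. Over all groups, where 38.2% were called, Ucp1 was 0.43 ± 0.12 higher in the cortex (limma adjusted p = 0.00224) and Retn was at 0.02 ± 0.02 (limma adjusted p = 0.526).

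Other genes of fat, from a list of 26 chosen with earlier results of these data known, were also compared between tissues over all groups. The counts of these and the next lists stand against 34.2% of all genes called higher and 30.7% called lower. Of 20 tested, 14 were higher and 3 were lower in the cortex, with a median difference of 0.20 log2 units, against 0.02 over all genes. Thrsp, a regulator of fatty acid synthesis, was 1.02 ± 0.17 higher, Gpd1, which makes glycerol phosphate, 0.95 ± 0.05 and Acaca, the acetyl-CoA carboxylase of fat synthesis, 0.90 ± 0.12. Scd1, a fatty acid desaturase, was at -0.95 ± 0.13. Of 9 genes of fat stroma and fibroblasts, 1 was higher (Pi16) and 7 were lower in the cortex, among them Pdgfra at -1.09 ± 0.05. Of the endothelial genes 1 (Kdr, at 0.06 ± 0.02) was higher, and Esam had the lowest difference, -1.59 ± 0.05. Of 6 brown fat genes 2 were higher and 4 lower, with Cidea at 0.82 ± 0.17 and Cox8b at -0.94 ± 0.18. Of 8 partners of Lpl, 5 were higher and 2 were lower: Lmf1, needed for its folding, was at 0.22 ± 0.02 and Gpihbp1, its anchor on capillaries, at -0.21 ± 0.04. Of the 3 adiponectin receptor genes, Cdh13 was lower (-0.19 ± 0.03) and the others did not pass.

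Across arrays of a tissue, the levels of Car3, Cidec and Plin4 tracked that of Adipoq. Of 14 relations with Adipoq (7 genes in each tissue), 10 passed an adjusted p of 0.05 for both coefficients. The genes were chosen with earlier results of these data known, which these permutation p-values do not take into account. Over all genes, 1.49% in the cortex and 0.33% in the medulla had an r over 0.5 with the mean of Adipoq and Cidec. In the cortex (35 arrays) Pearson's r and Spearman's rho were 0.98 and 0.97 for Car3, 0.95 and 0.96 for Cidec and 0.93 and 0.94 for Plin4. For each of these the permutation p was 1e-05, the smallest that 100000 resamples can give, with an adjusted p of 2e-05 for r. Without the 2 arrays farthest from the Adipoq median r was 0.97, 0.95 and 0.92, and on deviations from the group means it was 0.98, 0.94 and 0.92. The relation was thus as close within dose and time groups as across them.

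In the medulla (36 arrays) r and rho were 0.99 and 0.97 for Car3 and 0.95 and 0.91 for Cidec, each with the same smallest permutation p of 1e-05. Plin4 had 0.77 and 0.70 there. For the 2 genes of fatty acid handling, in the cortex r was 0.77 for Fabp4 (rho 0.80, permutation p = 1e-05) and 0.61 for Lpl (rho 0.61, permutation p = 0.00014, adjusted p = 0.000218). In the medulla r was 0.01 for Fabp4 (permutation p = 0.945) and -0.11 for Lpl (permutation p = 0.536). The difference between tissues in r was not tested. Ucp1 had an r of 0.50 in the cortex (rho 0.53, permutation p = 0.00209, adjusted p = 0.00293) and 0.66 in the medulla (rho 0.53, permutation p = 2e-05). Retn, below the floor, had 0.23 (permutation p = 0.173) and 0.26 (permutation p = 0.126).

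Per log2 unit of Adipoq within a group, the fitted slope of Car3 was 1.20 log2 units in the cortex and 1.08 in the medulla. The slope of Cidec was 0.74 and 0.45, and that of Plin4 0.58 and 0.30. For Lpl it was 0.12 in the cortex.

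**Figure D4:**
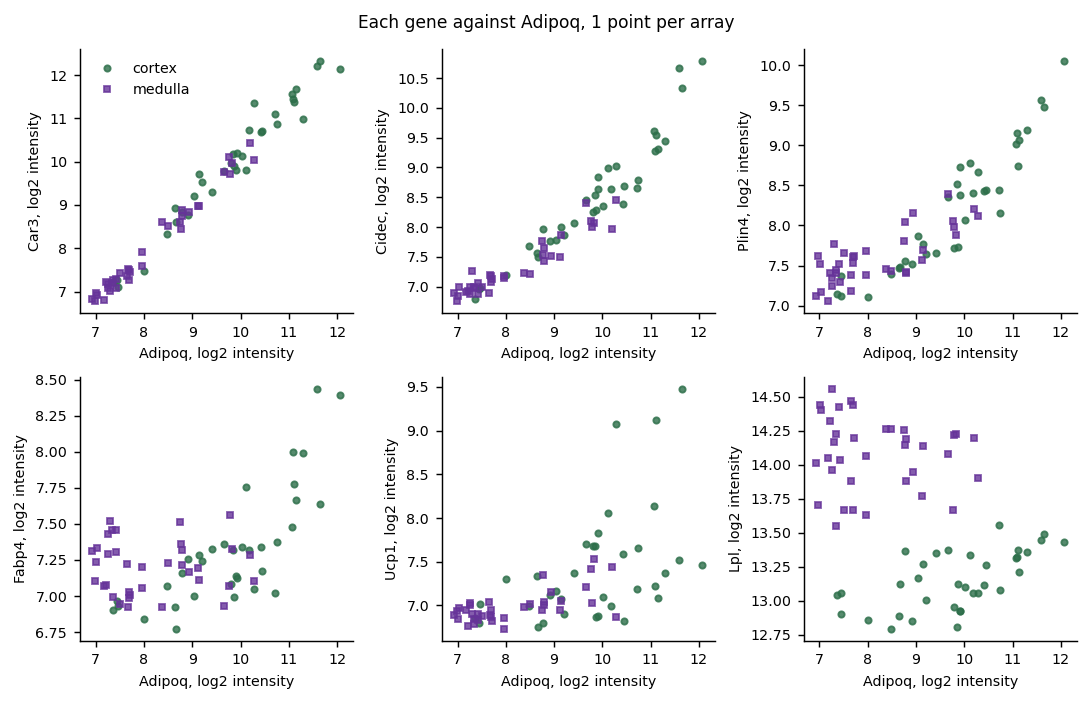
Log2 intensity of Car3, Cidec, Plin4, Fabp4, Ucp1 and Lpl against that of Adipoq, with 1 point per array, circles for the cortex (35 arrays) and squares for the medulla (36 arrays). Car3 follows a single line in both tissues (r 0.98 and 0.99), whereas Lpl forms 2 clouds, lower in the cortex.

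Genes outside the 9 that varied most like them were ranked by their r with the mean of Adipoq and Cidec over the arrays of a tissue, as a description. In the cortex these were Arxes2 (0.96), Adig (0.94), Acaca (0.93), Thrsp (0.93), Slc1a3 (0.92), Myl1 (0.91), Orm1 (0.90), Smoc1 (0.89), Pygl (0.89) and Tmem120b (0.88). In the medulla they were Thrsp (0.90), Arxes2 (0.90), Acaca (0.90), Cidea (0.88), Hk2 (0.80), Smoc1 (0.80), Aoc3 (0.77), Trf (0.74), Ppp1r3c (0.71) and Cd1d1 (0.70). Arxes2, Acaca, Thrsp and Smoc1 were in both. Of the other genes of fat, 14 of 20 had an r over 0.5 in the cortex, among them Pparg (0.87), the regulator of adipocyte differentiation, and Lep (0.78), the leptin gene. In the medulla it was 6 of 15, and over all genes 1.49% in the cortex and 0.33% in the medulla. Of the 10 endothelial genes 0 had an r over 0.5 in either tissue, nor did any of the macrophage, proximal tubule or medullary tubule genes listed. Of the stroma genes 3 of 9 did in the cortex, led by Dpt (0.71), and 0 of 9 in the medulla.

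Whether the cortex and medulla of the same dose, time and number varied together was asked over 35 pairs, with 8 relations. Adipoq had an r of 0.16 (rho 0.08, permutation p = 0.367, adjusted p = 0.587), Car3 0.16, Plin4 0.07 and Cidec 0.01, and none of these passed. For Adipoq, for example, replicate 1 of 10 Gy at 1.5 months had 12.07 in the cortex and 7.25 in the medulla. Fabp4 was the 1 gene that passed, with an r of 0.61 and a rho of 0.52 (permutation p = 0.0001, adjusted p = 0.0008 for r, 0.013 for rho). Without the 2 pairs farthest from the median its r was 0.56, and on deviations from the group means it was 0.52. Fabp4 was above the floor on 19 of 35 cortex and 16 of 36 medulla arrays, so many of these values lie near the floor. The share of all genes with such an r between the tissues was not counted. The labels do not say that a number marks 1 animal in both tissues.

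No exposure passed the test against controls for any of the 6 tested genes. Averaged over the 3 times, limma called 0 of 18 tests in the cortex and 0 of 18 in the medulla, with 1 of 18 at an unadjusted p under 0.05 in each tissue. The shares of all genes called were 0.103% at 0.3 Gy, 0.218% at 3 Gy and 0.023% at 10 Gy in the cortex, and 0.023%, 0.0691% and 0.0115% in the medulla, so few calls of any gene were made. For Adipoq in the cortex, the 9 arrays at 0.3 Gy had a lowest value of 7.36, a median of 9.20 and a highest value of 11.64, those at 3 Gy 8.00, 10.18 and 11.14, and those at 10 Gy 7.46, 10.02 and 12.07, against 8.49, 9.77 and 11.58 in 8 control arrays. All dose groups overlapped the controls. The differences from controls were -0.49 ± 0.50 at 0.3 Gy (95% interval -1.52 to 0.55), -0.00 ± 0.50 at 3 Gy (-1.03 to 1.03) and 0.33 ± 0.50 at 10 Gy (-0.70 to 1.36). Intervals this wide do not show that the groups are alike.

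None of the other genes passed in the averaged comparisons. Cortex differences lay between -0.43 and 0.34 for Car3, each ± 0.61, between -0.50 and 0.10 for Cidec (± 0.40) and between -0.21 and 0.22 for Plin4 (± 0.32). Lpl lay between -0.17 and -0.13 in the cortex, each ± 0.10, and Fabp4 between -0.33 and -0.06, each ± 0.14, both with a mean below control at all 3 doses without passing the test. In the medulla Adipoq differed by -0.01 at 0.3 Gy, 0.38 at 3 Gy and -0.09 at 10 Gy, each ± 0.45. The smallest unadjusted p of the averaged tests were those of Fabp4 at 0.3 Gy, with -0.33 ± 0.14 in the cortex (limma adjusted p = 0.541) and -0.14 ± 0.07 in the medulla (limma adjusted p = 0.571). The tissues' responses to a dose were compared directly in 18 tests, of which limma called 0, with 0 at an unadjusted p under 0.05. Of all 9019 genes, 0% were called in these 3 comparisons as well, and 518, 232 and 362 had an unadjusted p under 0.05 at 0.3, 3 and 10 Gy.

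**Figure D5:**
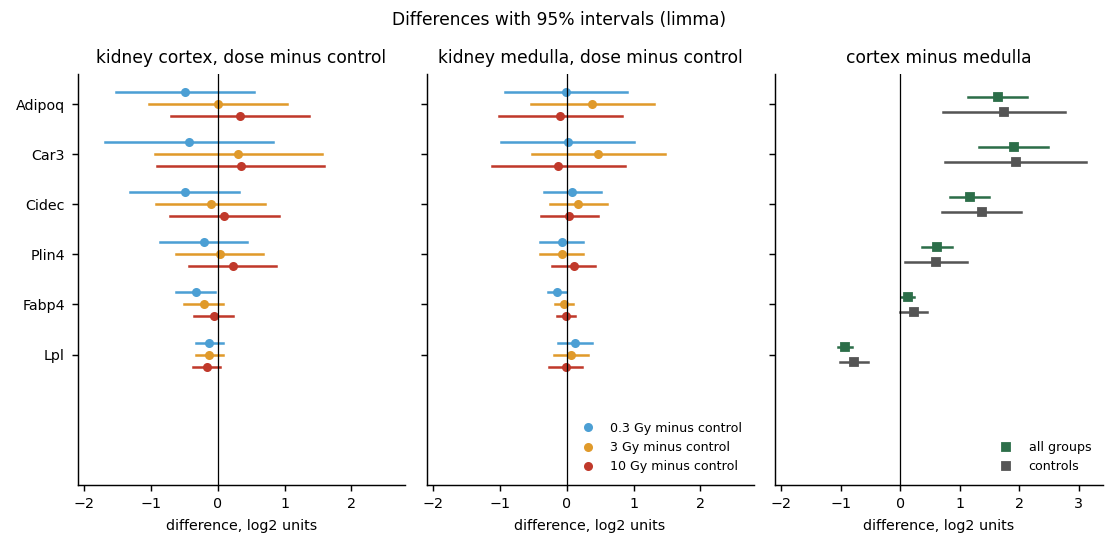
Differences in log2 units with 95% intervals (limma) for the 6 tested genes: each dose minus control averaged over the times in the cortex (left) and the medulla (middle), and cortex minus medulla over all groups and in controls (right). All but 2 dose intervals, those of Fabp4 at 0.3 Gy in each tissue, include 0. In the right panel the intervals of Adipoq, Car3, Cidec and Plin4 lie above 0, as does that of Fabp4 over all groups. The intervals are not adjusted for the number of tests. Plin4 in controls and Fabp4 over all groups missed the threshold of adjusted p.

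At single times, limma called 0 of 54 tests in the cortex and 0 of 54 in the medulla, with 7 and 2 at an unadjusted p under 0.05. Per comparison, 213 to 1078 of all 8699 cortex genes and 326 to 913 of all 8677 medulla genes had such an unadjusted p. In the cortex, the shares of all genes called at 1.5, 3 and 4.5 months were 0%, 0.023% and 0.184% at 0.3 Gy, 0.0115%, 0.046% and 0.0345% at 3 Gy, and 0% at each time at 10 Gy. In the medulla they were 0%, 0.0576% and 0.0691% at 0.3 Gy, 0%, 0.0461% and 0.0115% at 3 Gy, and 0%, 0% and 0.0115% at 10 Gy. Of the 7 in the cortex, 6 were in a single comparison, 0.3 Gy against control at 4.5 months, where all 6 tested genes had a lower mean. In that comparison 798 of all 8699 genes had an unadjusted p under 0.05. Cidec had 7.77, 8.38 and 6.80 at 0.3 Gy, against 9.28, 10.67 and 8.99 in controls. Plin4 had 7.52, 8.42 and 7.14 at 0.3 Gy, against 9.15, 9.57 and 8.78 in controls. Fabp4 had 7.26, 7.34 and 6.91 at 0.3 Gy, against 8.00, 8.44 and 7.76 in controls. The 3 arrays at 0.3 Gy lay below all 3 controls for Cidec, Plin4, Fabp4 and Lpl, whereas Adipoq and Car3 overlapped. Of all 8699 genes, 6% had the 3 arrays at 0.3 Gy below all 3 controls. The 6 tested genes varied together across cortex arrays, with an r with Adipoq of 0.61 (Lpl) to 0.98 (Car3). They are thus not 6 separate observations. The differences were -1.99 ± 0.66 for Cidec (limma adjusted p = 0.276), -1.47 ± 0.53 for Plin4 (limma adjusted p = 0.339) and -0.90 ± 0.24 for Fabp4 (limma adjusted p = 0.130), the smallest adjusted p of the cortex tests. These controls are 1 of the 3 cortex groups through which Fabp4 passed the floor. Its contrast was thus in part chosen by the filter. Adipoq had -2.03 ± 0.84 (limma adjusted p = 0.448). Of the 20 other genes of fat, 20 lay below 0 in this comparison with a median of -0.56, against 0.02 over all genes, and 0 passed the test. Of these 20, 14 had an r over 0.5 with the mean of Adipoq and Cidec across cortex arrays, so they are not 20 separate observations. Their summed intensity was 11301 to 19398 at 0.3 Gy, against 28476 to 42130 in controls. Of the endothelial genes 5 of 10 lay below 0, whereas 6 of 6 macrophage genes (median -0.37) and 6 of 6 medullary tubule genes (median -0.26) did, 0 of them called. The share of all genes below 0 was not counted for these lists. Macrophage sums were 1595 to 2583 at 0.3 Gy, against 1928 to 3246 in controls, and medullary tubule sums 25907 to 35106, against 30942 to 42560; their part in the result was not tested. Control replicate 3 carried adrenal genes, and without it and the other 2 cortex arrays that did, Adipoq was at -2.44 ± 0.89 and Fabp4 at -1.05 ± 0.27 (limma adjusted p = 0.142).

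In the medulla the smallest adjusted p at a single time was again that of Fabp4 at 0.3 Gy and 4.5 months. It had 7.07, 7.10 and 6.92 at 0.3 Gy, against 7.56, 7.46 and 7.52 in controls, a difference of -0.48 ± 0.11 (limma adjusted p = 0.133). Of all 8677 genes, 4.81% had the 3 arrays at 0.3 Gy below all 3 controls. For Fabp4 the exposed arrays lay below the floor and the 3 controls above it, and the controls' group was the one through which Fabp4 passed the filter. Here too 6 of 6 macrophage genes lay below 0, with a median of -0.27, against 0.01 over all genes. Their sums were 3406 to 4515 at 0.3 Gy, against 4044 to 7498 in controls, and their part was not tested. Adipoq did not share this in the medulla, where it had 7.18, 10.28 and 7.66 at 0.3 Gy, against 9.78, 7.35 and 7.30 in controls. The 4.5 month controls serve as comparison for all 3 doses, and in both tissues they are the highest group for Fabp4, with means of 8.06 in the cortex and 7.51 in the medulla. In the cortex they are also the highest group for Cidec (9.64), Plin4 (9.17) and Lpl (13.37), but not for Adipoq or Car3. The cortex group at 0.3 Gy and 4.5 months is the lowest for Adipoq (8.90), Car3 (8.89) and Cidec (7.65), but not for Plin4, Fabp4 or Lpl. Fabp4 at 10 Gy and 4.5 months in the cortex was at -0.65 ± 0.24 against the same controls, and at 3 Gy in the medulla at -0.25 ± 0.11.

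At 1.5 months, 10 Gy gave the opposite order in the cortex. The 3 arrays at 10 Gy lay above both control arrays for Adipoq, Car3, Cidec, Plin4 and Fabp4, and so they did for 11.5% of all genes, in a comparison in which limma called 0%. As these genes varied together in the cortex, they are not separate observations. This 10 Gy group is 1 of the 3 cortex groups through which Fabp4 passed the floor. The contrast of Fabp4 was thus in part chosen by the filter. Adipoq had 12.07, 10.02 and 10.75 at 10 Gy, against 9.87 and 9.41 in controls, a difference of 1.31 ± 0.94. Fabp4 was at 0.54 ± 0.27, Plin4 at 1.06 ± 0.59 and Lpl at -0.03 ± 0.18, each with a limma adjusted p of 0.964 except Lpl (0.996). In the medulla Adipoq had 7.25, 9.66 and 7.72 at 10 Gy, against 8.38, 8.49 and 7.51 in controls, which overlapped. Ucp1 and Retn, fitted without a floor, were called by limma at no dose or time in either tissue.

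Without exposure, controls at 4.5 months were compared with controls at 1.5 months. In the cortex, with 3 arrays against 2, limma called 0 of 6 genes and 2 had an unadjusted p under 0.05, as did 804 of all 8699 genes. Adipoq had 11.09, 11.58 and 10.11 at 4.5 months, against 9.87 and 9.41 at 1.5 months, and these did not overlap, nor did Cidec, Plin4 or Fabp4. Of all genes, 13% had the 3 arrays at 4.5 months above both at 1.5 months. Adipoq, Cidec, Plin4 and Fabp4 varied together in the cortex, so they are not separate observations. The differences were 1.29 ± 0.94 for Adipoq (limma adjusted p = 0.712), 1.47 ± 0.74 for Cidec (adjusted p = 0.554), 1.47 ± 0.59 for Plin4 (adjusted p = 0.413) and 0.90 ± 0.27 for Fabp4 (adjusted p = 0.253). In the medulla limma also called 0 of 6 genes, with 1 at an unadjusted p under 0.05: Fabp4, at 0.48 ± 0.11 (limma adjusted p = 0.093). There 1104 of all 8677 genes had such an unadjusted p. Fabp4 passed the floor in the medulla only through the controls at 4.5 months, so this contrast was in part chosen by the filter. In the cortex those controls are 1 of the 3 groups through which Fabp4 passed, so the same limit holds there. The shares of all genes called were 0.0115% in the cortex and 0.0346% in the medulla.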

How the data were processed

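Total RNA of 36 cortex and 36 medulla samples was extracted with a kit for lipid-rich tissue and labelled with biotin, per the labels' protocols. The authors deposited 1 intensity per probe and array, on a linear scale; the sorted columns differ by at most 1.26 units, as quantile normalization over the 72 arrays gives. The software, any background subtraction and the scanner are not given in the sources used here. A second table of 144 columns from before normalization carries no sample names and was not used. The smallest deposited intensity is 95.35.

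The intensities were taken to log2. Probes were named through the platform table: 23978 of 25697 have 1 symbol, 0 several and 1719 none. Each gene was read from its brightest probe. Of all values 52.7% lie under the floor of 150, which was chosen after seeing the distribution of intensities. The linear model of limma 3.58.1, run in R 4.3.3 with 1 mean per group and a trended prior, took in 35 cortex arrays, 36 medulla arrays or all 71. The two-sided p-values were adjusted after Benjamini-Hochberg across every tested gene of a fit, and 0.05 was the threshold. Correlations have permutation p-values from 100000 resamples (scipy 1.17.1), adjusted over the relations of a family. The number of arrays limits the precision. The fits were tested on simulated data.

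All 9 genes were named in every comparison, with at most 4 genes of another list past the threshold in a comparison and the 10 genes most like Adipoq and Cidec; that ranking was planned with Cfd as well. The genes and the lists were chosen with earlier results of these data known. Lists of other fat, brown fat, stroma, endothelial, macrophage, Lpl partner and adiponectin receptor genes were read beside them. Alternatives were the array left out put back, array weights, cyclic loess, normexp with an offset of 50, no floor, a floor of 200, the mean of all probes, the compared groups alone, the replicate number as a block and each array left out in turn. Leaving out the 3 cortex arrays with adrenal genes was added after seeing the data. Figures were drawn with matplotlib 3.10.9.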

Additional observations from a re-analysis of the deposited data

How the results depend on the processing

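With the controls over time of both tissues taken as 1 family, there were 8 families of comparisons, and in each the count of adipocyte genes past the threshold stayed within 1.5 times of that in the text under every alternative run. Of doses against control, 1356 cortex and 1212 medulla tests under alternatives gave 0 calls; the smallest limma adjusted p were 0.0857 and 0.0686, for Fabp4 at 0.3 Gy and 4.5 months with array weights. Adipoq, Car3, Cidec, Plin4 and Lpl differed between tissues over all groups in 81 of 81 alternatives. Fabp4 did in 22 of 81 (limma adjusted p 0.0116 to 0.102) and Plin4 in controls in 4 of 27 (0.00521 to 0.148). The sign of 32 of 78 differences changed in some alternative, and 0 of these were past the threshold; the cause was not tested. With the left-out cortex array put back the reversed values were 0.028 (Lpl) for cortex 0.3 Gy, 0.29 (Adipoq), 0.034 (Cidec), 0.031 (Lpl) for cortex 3 Gy, 0.14 (Car3) for 3 Gy response, 0.0074 (Lpl) for 10 Gy response. With array weights the reversed values were 0.33 (Adipoq), 0.20 (Cidec) for cortex 3 Gy, 0.12 (Adipoq) for medulla 0.3 Gy, -0.10 (Cidec), 0.009 (Lpl) for medulla 10 Gy, 0.22 (Car3), 0.039 (Lpl) for medulla controls over time, 0.16 (Adipoq), 0.46 (Car3), 0.13 (Cidec) for 3 Gy response. Without the 3 cortex arrays with adrenal genes the reversed values were -0.039 (Plin4) for cortex 3 Gy, -0.012 (Cidec) for cortex 10 Gy, -0.052 (Cidec) for 10 Gy response. With normexp the reversed values were -0.061 (Car3) for medulla 0.3 Gy, -0.070 (Adipoq) for medulla controls over time. Leaving out single arrays, the ranges of reversed differences in the cortex were -0.28 to 0.23 (Adipoq), -0.047 to 0.63 (Car3), -0.34 to 0.067 (Cidec), -0.14 to 0.17 (Plin4) for 3 Gy, -0.15 to 0.28 (Cidec), -0.17 to 0.0036 (Fabp4) for 10 Gy. In the medulla they were -0.33 to 0.26 (Adipoq), -0.31 to 0.31 (Car3), -0.072 to 0.19 (Cidec), -0.18 to 0.001 (Plin4) for 0.3 Gy, -0.013 to 0.12 (Lpl), -0.15 to 0.0023 (Plin4) for 3 Gy, -0.34 to 0.18 (Adipoq), -0.40 to 0.16 (Car3), -0.11 to 0.14 (Cidec), -0.067 to 0.018 (Fabp4), -0.090 to 0.044 (Lpl) for 10 Gy. For controls over time and for the tissue difference of responses they were -0.80 to 0.44 (Adipoq), -1.09 to 0.27 (Car3), -0.014 to 0.49 (Cidec), -0.28 to 0.13 (Lpl) for medulla controls over time, -0.28 to 0.025 (Plin4) for 0.3 Gy response, -0.52 to 0.16 (Car3), -0.071 to 0.25 (Plin4) for 3 Gy response, -0.19 to 0.24 (Cidec), -0.16 to 0.019 (Fabp4), -0.098 to 0.24 (Plin4) for 10 Gy response. Counts of all genes called moved more, for example 8 to 86 at 3 Gy in the cortex (19 in the text's fit) and 0 to 39 at 0.3 Gy in the medulla (2). Over all genes, cortex and medulla arrays of 1 number had a median correlation of deviations of 0.13 (35 pairs, -0.43 to 0.65, 22 over 0.1). Of the 35, 23 were highest with their own number, a hint from the data that some numbers link the tissues, and the labels do not say so. With the replicate number as a block, Fabp4 over all groups passed at 0.12, cortex minus medulla (limma adjusted p = 0.0176), no other call of an adipocyte gene changed, and 6030 genes were called there, against 5854 without the block. The array chip could not be used as a block, since the files used here name none. Low signal limits Retn, Ucp1, Fabp4 and, in the medulla, Cidec.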

Other observations

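Genes of adrenal steroid synthesis appeared on 3 of 35 cortex arrays. Cyp11b1, which makes corticosterone, had log2 intensities of 11.46 on replicate 3 of 0.3 Gy at 1.5 months, 12.92 on replicate 3 of 3 Gy at 4.5 months and 11.43 on replicate 3 of the controls at 4.5 months. On the other 68 arrays its highest value was 7.65. Cyp21a1 and Star were above the floor on the same 3 arrays and on 0 of the others. On these arrays Adipoq had 10.72, 11.11 and 10.11, ranks 10, 6 and 15 of 35, and Ucp1 had 7.18, 9.12 and 8.06, ranks 19, 2 and 5. The 3 arrays highest for Adipoq, Car3, Cidec and Plin4 were others. Their part in the results of the adipocyte genes was measured by leaving all 3 out: Plin4 in controls then passed the threshold at 0.66 log2 units in the cortex over the medulla, and no other call of these genes changed in the comparisons named in the text.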
